A study of Mus musculus with 11 samples.

Results

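A set of 1974 regions carried trimethylation of histone H3 at lysine 4 (H3K4me3) in both progenitor lineages of the fetal mouse kidney but not in embryonic stem (ES) cells. They were chosen on the peak calls themselves: each is an H3K4me3 peak of cap mesenchyme that shares at least 1 bp with an H3K4me3 peak of ureteric epithelium and none with a peak of ES cells, on chromosomes 1 to 19 and X. They made up 6.00% of the 32920 cap mesenchyme peaks on those chromosomes and 9.72% of the 20304 that were shared with ureteric epithelium, and they touched 2017 (8.44%) of the 23887 ureteric peaks. Which populations hold an H3K4me3 peak at these regions is therefore given by the choice and is no result.

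The cap mesenchyme, the progenitors of the nephron, was taken as Cited1-RFP+ cells at E18.5. The mice carried Cited1nuc-TagRFP-T, were of (C57BL/6 x DBA)F1 origin and were kept on C57BL/6J (N5), so Cited1 activity limits what the sort holds. The ureteric epithelium, which branches to form the collecting ducts, was taken as Hoxb7-GFP+ cells at E15.5, from mice with the Hoxb7myr- Venus/+ transgene, of (C57BL/6J x CBA/J)F2 origin on C57BL/6J. The ES cells were wild-type E14 of the 129/Ola strain at passage 15. Sublines of E14 that lack a working Hprt gene are in wide use, and the labels do not name the subline. Unfixed chromatin of each population was cut with micrococcal nuclease and precipitated for H3K4me3 or H3K27me3. RNA was measured in wild-type C57BL/6 metanephric mesenchyme and ureteric epithelium dissected by hand at E11.5, which is earlier than either sorted population and includes unsorted cells, and no RNA of ES cells was used here. Each group held 1 sample, so no value below has a replicate error and no test between groups was possible. Age, strain and cell source differ between the 3 populations and cannot be told apart from lineage.

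H3K4me3 is laid down around the starts of genes, most strongly at promoters rich in CpG dinucleotides, where it accompanies transcription or readiness for it. Weaker and narrower H3K4me3 is also found at enhancers and at alternative promoters. H3K27me3 is left by the Polycomb complexes at silent developmental genes, and promoters that hold both marks are called bivalent.

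Progenitor and ureteric marker genes had H3K4me3 at a start about as often in each population, and at pluripotency genes it was most frequent in ES cells. Of 25 nephron progenitor markers, a peak lay at a start of 24 in cap mesenchyme, of 23 in the ureteric list and of 24 in ES cells, and of 28 ureteric markers 20, 21 and 22 did. Pluripotency genes had one in 16, 9 and 25 of 26 cases, podocyte and tubule genes in 14, 5 and 12 of 22, endothelial genes in 8, 16 and 13 of 18, and leukocyte genes in 1, 1 and 5 of 20. By RNA the dissected tissues matched their labels, with progenitor markers summing to 452 FPKM (fragments per kilobase of transcript, scaled to all fragments mapped) in mesenchyme and 137 in ureteric epithelium, and ureteric markers to 47.5 and 2942.

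Promoters with a start within 1 kb of a region are shown by 5 examples, since base composition was a feature that the choice did not use. The bases shown need not lie inside the region: the Pkhd1 start lay 20 bp outside it. Distance was taken from the cap mesenchyme peak, and no ureteric peak lay within 1 kb of a start of Hnf4a or Slc22a8. Each is the 300 bases of RefSeq (GRCm38.p6, the sequence of mm10) from 250 before a gene start to 50 from it on, written 5′ to 3′ on the gene's strand, with CG dinucleotides in capitals. Hprt (chrX:52987828-52988127, plus strand), which encodes a purine salvage enzyme of all cells, and Plagl1 (chr10:13090582-13090881, plus strand), an imprinted zinc finger gene, are CpG-rich examples.
Hprt: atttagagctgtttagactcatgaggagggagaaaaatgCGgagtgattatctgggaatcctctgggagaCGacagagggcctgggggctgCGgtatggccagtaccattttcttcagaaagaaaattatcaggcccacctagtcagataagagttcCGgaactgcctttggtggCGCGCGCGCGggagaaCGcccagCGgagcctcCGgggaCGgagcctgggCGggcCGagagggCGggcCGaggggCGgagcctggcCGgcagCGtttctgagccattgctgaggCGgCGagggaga
Plagl1: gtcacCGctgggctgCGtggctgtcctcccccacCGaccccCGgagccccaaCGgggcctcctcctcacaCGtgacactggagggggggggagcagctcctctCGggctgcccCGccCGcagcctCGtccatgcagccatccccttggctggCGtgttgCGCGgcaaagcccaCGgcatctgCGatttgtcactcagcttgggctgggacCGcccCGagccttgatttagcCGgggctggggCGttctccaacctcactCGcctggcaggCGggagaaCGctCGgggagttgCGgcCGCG
Pkhd1 (chr1:20618008-20618307, minus strand), the gene of the cilium protein fibrocystin that is mutated in recessive polycystic kidney disease, Hnf4a (chr2:163546905-163547204, plus strand), a nuclear receptor of liver and proximal tubule, and Slc22a8 (chr19:8592932-8593231, plus strand), an organic anion transporter of the proximal tubule, are CpG-poor examples.
Pkhd1: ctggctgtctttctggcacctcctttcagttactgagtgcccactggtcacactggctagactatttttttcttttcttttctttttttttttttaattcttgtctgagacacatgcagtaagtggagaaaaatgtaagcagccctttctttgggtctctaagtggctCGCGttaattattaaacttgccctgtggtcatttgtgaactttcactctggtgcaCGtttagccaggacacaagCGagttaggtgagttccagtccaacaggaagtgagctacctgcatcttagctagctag
Hnf4a: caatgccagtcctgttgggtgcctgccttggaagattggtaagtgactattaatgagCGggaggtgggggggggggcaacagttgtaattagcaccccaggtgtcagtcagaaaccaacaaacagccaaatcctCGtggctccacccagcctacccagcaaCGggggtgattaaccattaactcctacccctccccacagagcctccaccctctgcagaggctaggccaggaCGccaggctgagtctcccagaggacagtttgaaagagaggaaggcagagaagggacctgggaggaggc
Slc22a8: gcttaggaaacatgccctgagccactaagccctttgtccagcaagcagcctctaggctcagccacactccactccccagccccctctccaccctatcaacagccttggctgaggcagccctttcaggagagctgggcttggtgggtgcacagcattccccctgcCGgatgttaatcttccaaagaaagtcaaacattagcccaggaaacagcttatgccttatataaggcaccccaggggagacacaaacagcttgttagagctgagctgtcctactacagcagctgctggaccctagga

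The Hprt and Plagl1 promoters held 22 and 26 CG dinucleotides, with an observed over expected CpG ratio of 0.844 and 0.696. The ratio compares the number of CG dinucleotides with the number that the C and G content alone would give. Pkhd1 and Hnf4a held 4 each (ratios of 0.284 and 0.163), and Slc22a8 held 1 (0.0455). Of the 279 promoters whose start lay within 1 kb of a region of the set, 240 (86.0%, exact 95% binomial interval 81.4 to 89.9) had a ratio under 0.6, against 64.0% of all 32619 RefSeq promoters and 28.5% of the promoters at peaks shared by all 3 populations. The comparison with all promoters rests on the full ES list: with only the upper 50% of ES peaks by score counted as present, 61.8% of 939 promoters were low in CpG, below the 64.0% of all. The median ratio was 0.319 in the set, 0.387 over all promoters and 0.759 at the peaks of all 3. Promoters at peaks of cap mesenchyme alone were low in CpG in 92.9% of cases. Intervals of this kind cover counting error only, and neighbouring starts of a gene are not independent of each other.

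**Figure D1:**
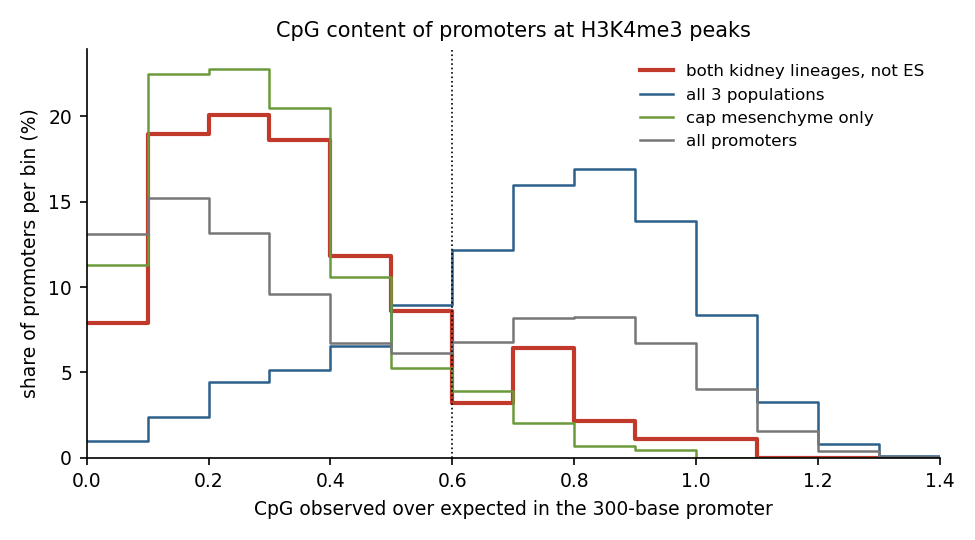
Share of promoters (vertical axis, %) by CpG observed over expected ratio of the 300-base promoter (horizontal axis, bins of 0.1), for promoters at H3K4me3 peaks of both kidney lineages but not ES cells (red), of all 3 populations (blue), of cap mesenchyme only (green) and for all RefSeq promoters (grey). The dotted line is the limit of 0.6, and 86.0% of the red promoters lie to its left, against 28.5% of the blue.

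Short motifs were searched on both strands of the same promoters. The GC box GGGCGG was found in 18.3% of promoters of the set, 35.9% of all promoters, 64.8% of those at peaks of all 3 populations and 12% of those at peaks of cap mesenchyme only. The share with TATAAA, the core of the TATA box, was 11.1% in the set and 13.7% over all promoters. CCAAT was found in 34.8% and 37.6%, the AP-1 motif TGANTCA in 8.60% and 7.85%, and the TEAD motif GGAATG in 14.7% and 14.6%. The GC box, itself made of C and G, was the motif whose share in the set lay furthest from that over all promoters. A match describes letters in a window and shows no binding.

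The regions were narrow and of modest peak score. Their median width was 994 bp (quartiles 763 and 1291), against 2038 bp for the 18330 peaks shared by all 3 populations, 906 bp for the 5448 shared with ES cells alone and 751 bp for the 7168 of cap mesenchyme only. The median score, the authors' own peak value, was 217 in the set and 1838, 129 and 90.9 in those classes. Only 16 regions (0.811%) reached a score of 3100, a value at which the score is largely capped and which 4493 cap mesenchyme peaks reached. In ureteric epithelium the overlapping peaks had a median score of 101 and a median width of 761 bp. The overlap was not marginal for most: a median of 74.4% of each region was covered by ureteric peaks, and 1694 regions (85.8%) were covered by 50% or more.

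**Figure D2:**
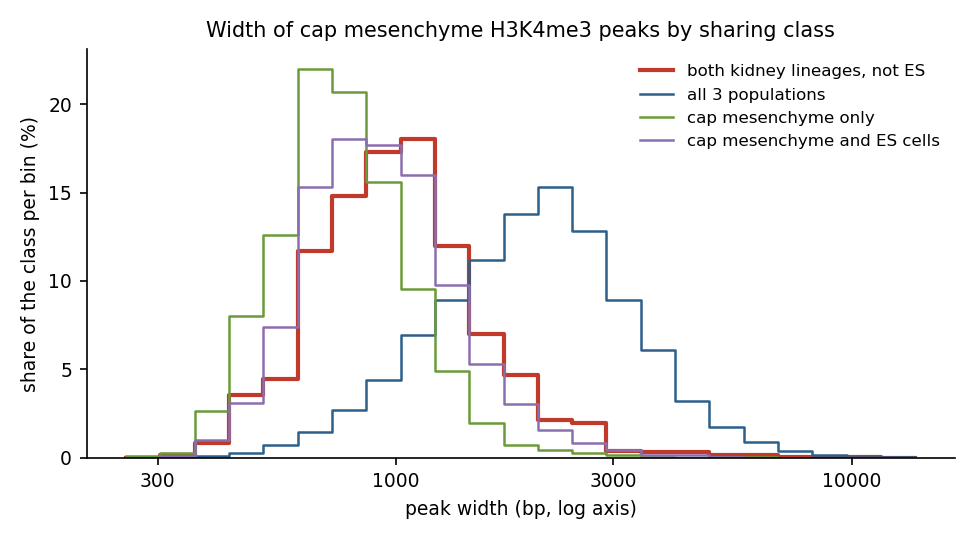
Width of cap mesenchyme H3K4me3 peaks (horizontal axis, bp on a log scale) against the share of each class per bin (vertical axis, %), for 1974 peaks of both kidney lineages but not ES cells (red), 18330 of all 3 populations (blue), 7168 of cap mesenchyme only (green) and 5448 of cap mesenchyme and ES cells (purple). The red curve centres near its median of 994 bp, far to the left of the blue curve with its median of 2038 bp.

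The nearest ES peak lay at a median distance of 14.3 kb (quartiles 4.54 and 35.7), with 166 regions (8.41%) under 1 kb and 1159 (58.7%) over 10 kb from it. Cap mesenchyme peaks absent from both other populations were alike in this, with 8.43% under 1 kb and 56.6% over 10 kb. At the edge of the choice, the regions with the smallest ureteric overlap shared 2 bp (at the start of Camk1g), 13 bp (in Phldb2) and 14 bp (in Spata13). The regions closest to an ES peak lay 3 bp (in Rxra), 5 bp (nearest start Gm3363) and 10 bp (at the start of Kcnj5) from it. Just outside, the peaks near Tigit, Tdrp and Colgalt2 shared 7, 14 and 23 bp with an ES peak. The ES list was the longest of the H3K4me3 lists, with 66694 peaks used, so absence from it was a stringent condition.

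Few of the regions lay at gene starts. With a start counted when within 1 kb of the cap mesenchyme peak, 296 regions (15.0%, interval 13.4 to 16.6) were at the start of a protein-coding or long noncoding gene, against 46.1% of all cap mesenchyme peaks and 72.2% of peaks shared by all 3 populations. Another 893 (45.2%, 43.0 to 47.5) lay inside a gene away from its starts, and 785 (39.8%, 37.6 to 42.0) lay between genes. Peaks of cap mesenchyme only were at a start in 6.49% of cases, and those shared with ES cells alone in 21.6%. Regions of the set at a start had a median width of 1204 bp and a median score of 375, compared with 972 bp and 191 inside genes and 967 bp and 218 between genes.

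**Figure D3:**
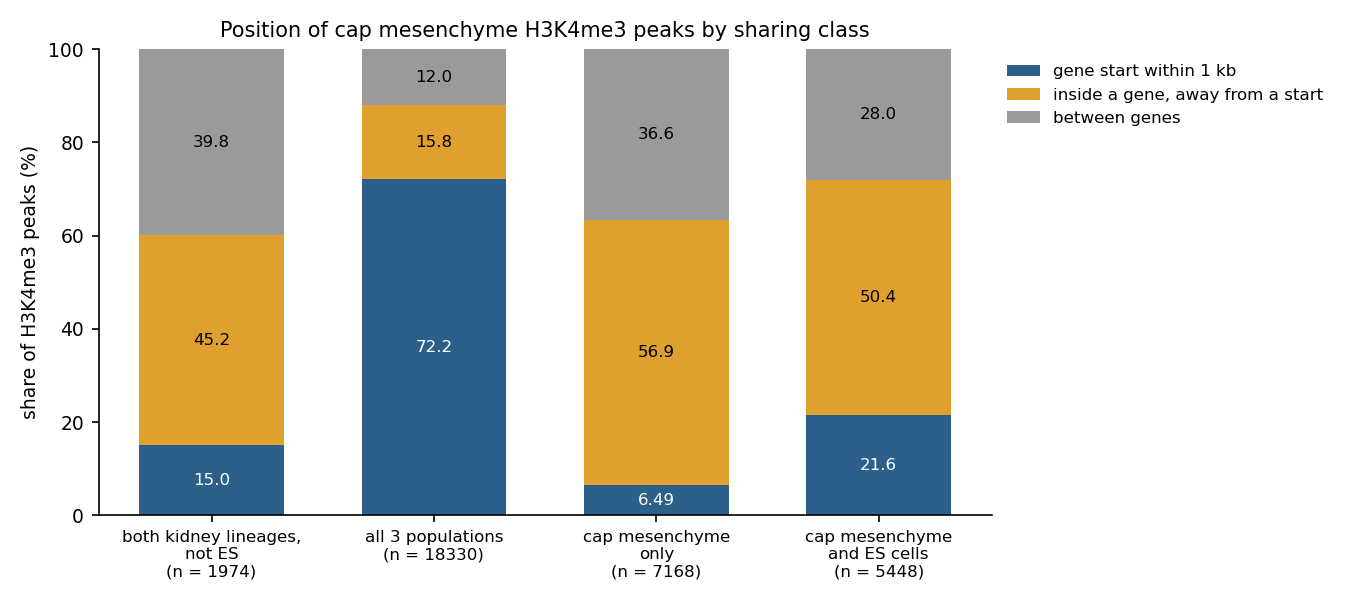
Share of cap mesenchyme H3K4me3 peaks (vertical axis, %) with a gene start within 1 kb (blue), inside a gene but away from its starts (orange) or between genes (grey), for 4 classes of peaks by the populations that share them. Peaks of both kidney lineages but not ES cells were at a start in 15.0% of cases, against 72.2% of peaks of all 3 populations.

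Score moved with these shares. Among peaks with a score from 111 to 421, the quartiles of the set and a range chosen after seeing the data, 113 of the 986 regions of the set were at a start, as were 469 of the 2231 peaks of all 3 populations, whose median width was then 1041 bp against 990 bp. The low-CpG share in that score range was 88.9% of 99 promoters in the set and 72.1% of 491 at peaks of all 3. The gap between the classes was thus smaller at like score, and it had the same direction.

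H3K27me3 lay over few of the regions in each population, though over more than in peaks of cap mesenchyme only, where the shares were 2.85% in cap mesenchyme, 4.20% in the ureteric list and 1.07% in ES cells. In cap mesenchyme 113 (5.72%, interval 4.74 to 6.84) overlapped an H3K27me3 peak, against 9.30% of all cap mesenchyme H3K4me3 peaks. In ureteric epithelium 159 did (8.05%, 6.89 to 9.34), against 11.6%. In ES cells 59 did (2.99%, 2.28 to 3.84), against 12.3% of all cap mesenchyme peaks and 16.7% of those shared by all 3 populations. No H3K27me3 peak of any population touched 1754 regions (88.9%), and 24 (1.22%) had one in all 3. The deposited H3K27me3 lists differed in length and width, with 105945 peaks of median 195.0 bp in cap mesenchyme, 136696 of 284.0 bp in ureteric epithelium and 12731 of 655.0 bp in ES cells, so shares are compared between classes of regions within a list and not between lists. Within the score range given above the ES share was 2.54% in the set, 7.89% in peaks of all 3 and 1.51% in peaks of cap mesenchyme only.

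**Figure D4:**
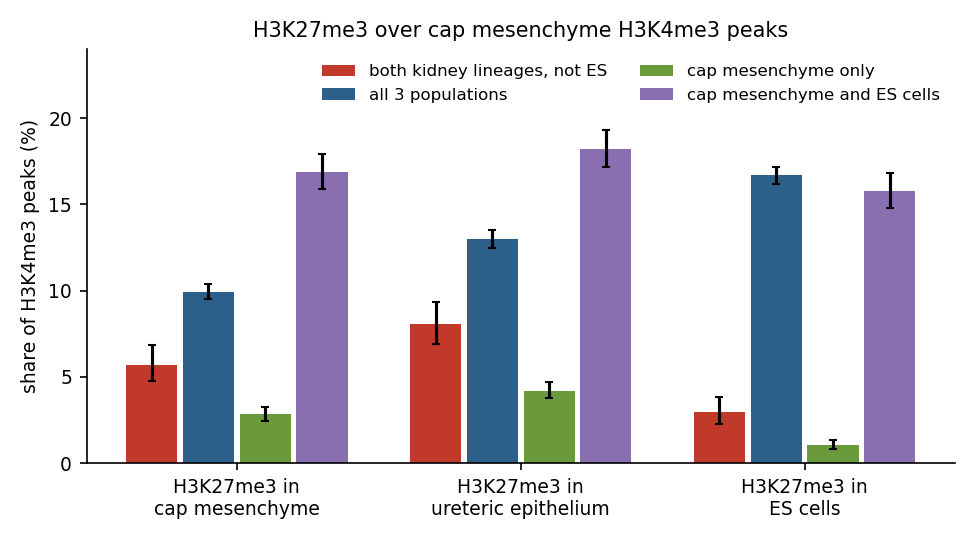
Share of cap mesenchyme H3K4me3 peaks (vertical axis, %) that overlap an H3K27me3 peak of cap mesenchyme, ureteric epithelium or ES cells, by class of H3K4me3 peak, with exact 95% binomial intervals. Peaks of both kidney lineages but not ES cells (red) lie at 5.72%, 8.05% and 2.99%, below peaks of all 3 populations (blue) in each H3K27me3 list.

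Among regions at gene starts, 18 (6.08%) carried H3K27me3 in ES cells, where H3K4me3 was absent by the choice, against 18.7% of all 15164 cap mesenchyme peaks at starts and 4.95% of those of cap mesenchyme only. Among the widest was that at Bmi1, which encodes a subunit of the Polycomb repressive complex PRC1. At Bmi1 (chr2:18675531-18679008, 3478 bp) the lengths covered by H3K27me3 were 2042 bp in ES cells, 1254 bp in ureteric epithelium and 613 bp in cap mesenchyme. RNA of Bmi1 was 14.8 FPKM in metanephric mesenchyme and 15.4 in ureteric epithelium. At Sdk2 (chr11:114064373-114067799), a cell adhesion gene, H3K27me3 covered most of the region in ES cells (3387 of 3427 bp) and much of it in the kidney (2803 bp ureteric, 1576 bp cap mesenchyme). Other wide regions with ES H3K27me3 lay inside Msi1 (853 of 4293 bp), Bcor (771 of 2839 bp) and Agap1 (418 of 2726 bp), and none of these 3 had H3K27me3 in either kidney population.

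The Hox genes, which set position along the body axis, held regions inside the clusters. None of 39 Hox genes had a region of the set at a start, a count near the 0.935% of all genes that did. Inside Hoxa3, Hoxb3, Hoxc4 and Hoxd3 lay 5 regions, and all 5 of the 5 carried H3K27me3 in ES cells. Of all regions of the set inside genes 3.58% did, and of peaks of all 3 populations inside genes 16.1%. The share among other H3K4me3 peaks of the Hox clusters was not computed. The 100 kb at chr2:74700001-74800000, around Hoxd3, held 4 regions, 490 to 1800 bp wide, all 4 with ES H3K27me3, 0 with it in cap mesenchyme and 1 in ureteric epithelium. Their nearest ES H3K4me3 peaks could be close, 210 bp and 1157 bp for the 2 inside Hoxd3, which are also among the 5 above. RNA of the host genes was 11.7 FPKM in mesenchyme and 1.93 in ureteric epithelium for Hoxa3, 18.8 and 27.3 for Hoxb3, 12.1 and 1.26 for Hoxc4, and 3.39 and 4.58 for Hoxd3. Hoxa3 and Hoxc4 were the 2 with the lower ureteric value.

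Genes with a region of the set at a start numbered 312, 176 protein-coding and 136 long noncoding, which is 0.935% of the 33380 genes with a known start. For 54 of them (17.3%) an ES peak also lay within 1 kb of a start of the same gene. In 37 of these the start in the set was a separate one, free of ES H3K4me3, at a median distance of 55.8 kb from the ES-marked start. Robo2, an axon guidance receptor that restricts where the ureteric bud forms, had such a start 681 kb from its ES-marked start (region chr16:75091990-75093293, 1304 bp). Disp1, needed for release of Hedgehog proteins, had one 74.0 kb away, and Srpk2, a kinase of splicing factors, 59.4 kb away. Pkig, an inhibitor of protein kinase A, had one 35.6 kb away and Wnt5b, a secreted ligand, 95 kb away. RNA was summed here over all transcripts of a gene, so the values below do not say which start was used.

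RNA was low for most of these genes, as it was for genes at large. Of the 292 with RNA values, 74 (25.3%, interval 20.5 to 30.7) reached 1 FPKM in metanephric mesenchyme, against 34.2% of all 30715 genes, and 73 (25%, 20.1 to 30.4) did so in ureteric epithelium, against 35.3%. Both tissues reached it for 51 genes (17.5%, against 31.8% of all), and 196 genes (67.1%, against 62.2% of all) were under 1 FPKM in both. A smaller share of the set than of all genes was listed at 0 in both tissues, 70 genes (24%) against 36.3%. Genes at the starts of peaks shared by all 3 populations reached 1 FPKM in 67.0% and 69.3% of cases. Biotype moved with this: 88 of 172 protein-coding genes of the set (51.2%) reached 1 FPKM in either tissue, close to the 53.5% of all protein-coding genes, while 8 of 120 long noncoding genes did (6.67%, against 3.87%). Among genes with a CpG-poor promoter in the set, 28 of 200 (14%) were at 1 FPKM or more in both tissues, against 11 of 32 (34.4%) with a CpG-rich one. In either tissue the shares were closer, 31.5% and 40.6%. The same split over all genes was not computed and biotype was not held fixed, so it cannot be read as particular to the set.

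The highest level by far in both tissues was that of H19, an imprinted long noncoding RNA abundant in the fetus, at 1018 FPKM in mesenchyme and 984 in ureteric epithelium. The authors' interval for its main transcript, which covers no spread between replicates, was 816 to 1172 in mesenchyme and 829 to 1069 in ureteric epithelium. Capn6, a calpain family member of embryonic muscle and mesenchyme, was at 39.3 and 60.1 FPKM, a log2 difference of -0.60, close in size to the 0.56 by which rescaling lowers ureteric values. Its region on chromosome X (chrX:143823357-143827713, 4357 bp) lay 150386 bp from the nearest ES peak. Robo2 was at 73.9 and 23.5 FPKM, higher in mesenchyme. Thra, the thyroid hormone receptor alpha, was even at 15.8 and 15.6 FPKM, under one of the widest regions (chr11:98739938-98745103, 5166 bp), but an ES peak lay only 271 bp away. Hprt was at 14 and 32.5 FPKM, with its region (chrX:52987617-52989591, 1975 bp) 60227 bp from any ES peak. H19, Capn6, Robo2 and Thra, but not Hprt, were among the 12 genes highest in their lower tissue. The others of the 12 were Nnat, Paip1, Asb4, Pkig, Prkacb, Plagl1, Bmi1 and Rpl32l. These others were at 14.6 to 42.3 FPKM in mesenchyme and 15.4 to 56.1 in ureteric epithelium.

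**Figure D5:**
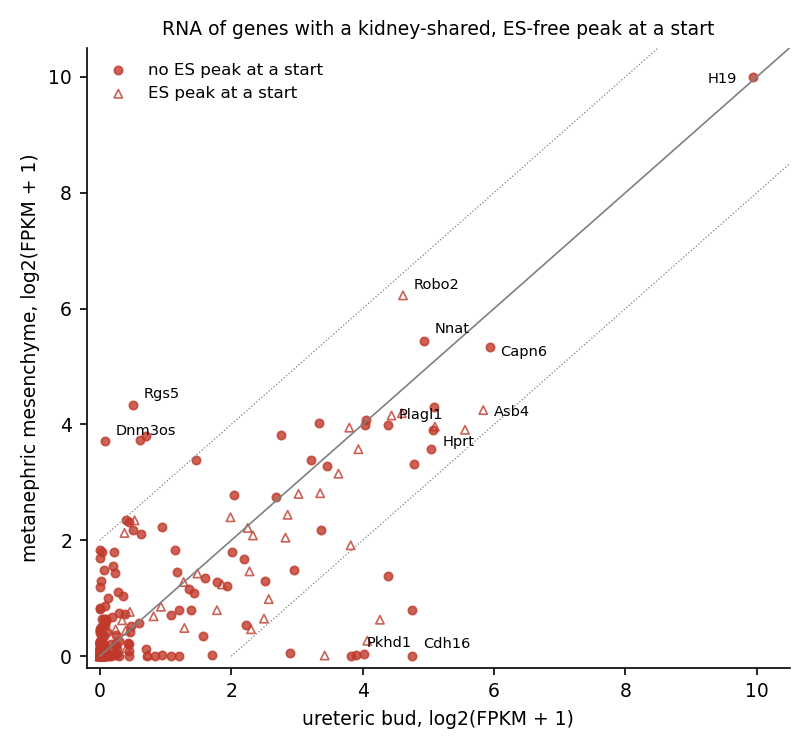
RNA of the 292 genes with a region of the set at a start, as log2(FPKM + 1) in ureteric epithelium (ureteric bud, horizontal axis) and metanephric mesenchyme (vertical axis), 1 sample each; open triangles are genes with an ES peak at a start as well. The solid line marks equal levels and the dotted lines a 4-fold difference; H19 stands at the top right, Rgs5 and Dnm3os above the upper line and Cdh16 and Pkhd1 far below the lower line.

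Differences between the tissues went both ways. On the log2(FPKM + 1) scale, which understates changes of low genes, the median difference (mesenchyme minus ureteric) was -0.31 over the 96 genes at 1 FPKM or more in either tissue and -0.46 over all 11612 such genes. A difference of 4-fold or more, with at least 2 FPKM in the higher tissue, was seen in 4 genes toward mesenchyme (1.37% of 292, against 0.746% of all genes) and in 10 toward ureteric epithelium (3.42%, against 1.61%). With both libraries rescaled to 1 median those counts were 8 and 10. The shares of all genes at that scaling were not computed, so the rescaled counts cannot be read as particular to the set. The median difference was then 0.18 in the set and 0.02 over all genes, so the direction of the median rests on the scaling. With a pseudocount of 0.1 in place of 1 the counts were 15 (5.14%, against 1.33% of all genes) and 16 (5.48%, against 2.59%). The imbalance of 10 genes toward ureteric epithelium against 4 toward mesenchyme thus rests on the pseudocount.

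The 4 genes higher in mesenchyme were Rgs5, a regulator of G protein signalling known from pericytes, at 19.3 and 0.420 FPKM (log2 difference 3.84), Dnm3os, the noncoding host of the miR-199a and miR-214 cluster, at 12.1 and 0.0580 (3.63), Ldb2, a LIM domain binding cofactor, at 12.3 and 0.529 (3.12), and Col9a1, a collagen of cartilage, at 12.9 and 0.631 (3.09). Acta2, the smooth muscle actin, was at 4.0 and 0.362 FPKM, Postn, a matrix protein, at 2.46 and 0.157, and Vcam1, an adhesion molecule, at 2.56 and 0. All 18 renal stroma markers checked summed to 897 FPKM in mesenchyme and 49.1 in ureteric epithelium (16 and 3 of them at 1 FPKM or more), and endothelial markers to 64.5 and 14.3 over 18 genes. The part of stromal and vascular cells in these values was not tested.

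Among the 8 genes with the largest difference toward ureteric epithelium, Cdh16, the kidney-specific cadherin, was listed at 0 in mesenchyme and at 26.0 FPKM in ureteric epithelium (-4.75), and Pkhd1 at 0.0100 and 13.9 (-3.88). Kcnj16, a potassium channel of the distal nephron, was at 0.00871 and 9.72 (-3.41), Myo5b, a motor of apical vesicle traffic, at 0.548 and 18.2 (-3.63), and Rmst, a long noncoding RNA, at 0.749 and 25.9 (-3.94). Tmem59l, ccdc198 and Anks1b had differences of -4.0, -3.83 and -3.81. Of the 28 ureteric markers, whose sums are given above, 8 reached 1 FPKM in mesenchyme and 22 in ureteric epithelium. H3K4me3 was present in cap mesenchyme within 1 kb of a start of each of these 8 genes, by the choice. Its scores in cap mesenchyme were 133.65 at Cdh16, 215.74 at Pkhd1 and 86.56 at Kcnj16. In the ureteric list the scores were 563.38, 755.84 and 215.43. The Myo5b start also had an ES peak within 1 kb, 170 bp from the region, and the Rmst region lay 460 bp from an ES peak. Kcnj16 and Anks1b had an ES peak at another start. Scores of separate lists are not on a shared scale.

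Imprinted genes, which are expressed from the maternal or the paternal copy alone, were the list with the most genes that had a region at a start. Regions of the set lay at a start of 5 of 27, namely H19, Plagl1, Nnat, Peg13 and Dcn, against 0.935% of all genes. Of the 21 imprinted genes with H3K4me3 at a start in both kidney lineages, 5 (23.8%) had no ES peak at any start, against 264 (1.67%) of the 15823 such genes over the genome, and 16 had one. The list was put together with earlier results of these data known, so the count is a description. The regions were 2747 bp at H19 (chr7:142575944-142578690), 2440 bp at Plagl1 (chr10:13089737-13092176), 2929 bp at Nnat (chr2:157559152-157562080), 2620 bp at Peg13 (chr15:72808783-72811402) and 1174 bp at Dcn (chr10:97479159-97480332). Their gaps to the nearest ES peak were 26143, 14249, 2591, 88381 and 82495 bp. None of the 5 carried H3K27me3 in any population. Plagl1, a growth regulator, was at 14.9 and 19.9 FPKM, Nnat, a small membrane protein of neural and endocrine cells, at 42.3 and 29.7, and Peg13, a noncoding RNA, at 1.80 and 6.78. Dcn, the matrix proteoglycan decorin, was at 0.784 FPKM in mesenchyme and listed at 0 in ureteric epithelium. Another 3 regions lay inside imprinted genes: in Snrpn (1966 bp, score 1206.70), in Gnas (1020 bp) and in Igf2r (819 bp). Nap1l5, an imprinted gene outside the list that was picked after its value was seen, also had a region at its start (1241 bp) 73289 bp from an ES peak, with RNA of 0.128 and 0.0401 FPKM.

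Other lists held 0 to 3 genes with a region at a start, to be read against 0.935% of all genes. Of 39 nuclear receptors 3 had one (7.69%: Thra, Esr1 and Hnf4a), of 28 renal epithelial genes 2 (7.14%: Cdh16 and Pkhd1), of 22 podocyte and tubule genes 2 (9.09%: Slc22a8 and Hnf4a), and of 18 housekeeping genes 1 (5.56%: Hprt). These starts were assigned from the cap mesenchyme peak. Of the 22 podocyte and tubule genes, 5 had H3K4me3 at a start in both kidney lineages, and all 5 had it in ES cells too. Slc22a8 and Hnf4a were not among them, as no ureteric peak lay within 1 kb of their starts. Hnf4a was listed at 0 FPKM in both tissues and Slc22a8 at 0 and 0.0596, while their regions were 2050 and 1553 bp wide. Dazl, a germ cell gene, was at 0.0330 FPKM and 0 under a region of 1079 bp and a score of 579.10. No gene of the ureteric (28), endothelial (18), leukocyte (20), blood (15) or pluripotency (26) lists had a region at a start, and none did among 65 listed genes of GDNF, FGF, Wnt, BMP and Notch signalling, of which 64 had a peak of all 3 populations at a start. Wnt5b, named above, is not on that list. At 0.935% of all genes, a count of 0 in lists of these sizes says nothing particular about them. Regions away from starts lay inside 5 of the 65 signalling genes, against 2.37% of all 34324 genes, with 7 regions in Notch2 (3 regions of 898 to 1683 bp), Fgfr2, Fzd4, Tgfbr3 and Smad3. Genes around such regions were longer than genes at large, as given below, and length was not matched here. Fgfr2, the receptor of FGF10 in the ureteric tip, was at 21.2 and 70.5 FPKM, and Notch2, the receptor needed for proximal nephron fate, at 10.4 and 10.3.

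The genes around the 893 regions inside genes had a median length of 111 kb, against 12.8 kb over all genes, 76.5 kb for hosts of cap mesenchyme only peaks and 42.0 kb for hosts of peaks of all 3 populations. For hosts of peaks shared with ES cells alone it was 39.4 kb. Hosts of every class were thus longer than genes at large, so the comparison with all genes is not particular to the set. Skap1, a T cell adaptor gene of 295 kb, held 7 regions, and Mecom, a zinc finger transcription regulator, and Robo1, an axon guidance receptor, held 5 each, as did the noncoding D030068K23Rik. Mecom RNA was 18.2 FPKM in mesenchyme and 90.7 in ureteric epithelium, and Skap1 was at 0.969 and 8.93. Ebf2 held 4 regions at 1.98 and 0.0217 FPKM and Ptprm 4 at 5.14 and 2.18. Of the 757 host genes with RNA values, 50.3% reached 1 FPKM in mesenchyme and 52.2% in ureteric epithelium, near the 51.8% and 51.0% of hosts of cap mesenchyme only peaks. The renal epithelial genes Bicc1 (1444 bp) and Pkhd1 held regions in their bodies, as did Meis1 and Meis2, markers of the stroma, at 62.4 and 0.288 FPKM and 166 and 2.30 FPKM.

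The widest regions fell into 2 kinds. At or inside genes were Ccdc80, a secreted matrix protein (chr16:45093189-45099484, 6296 bp, 15.2 and 9.07 FPKM), Zbtb20, a zinc finger repressor, with 5437 and 4284 bp inside the gene, Thra, and Il33, an epithelial and stromal cytokine (4683 bp, 0.700 and 0.372 FPKM). Each of these named regions reached a score of 3100 and had no H3K27me3 in the 3 populations. Between genes were 5 regions of 5140 to 10875 bp: chr8:20288382-20294198, chr8:20294253-20301241, chr8:20415692-20426566, chr10:3110970-3117487 and chr17:29103960-29109099. Each of these carried kidney H3K27me3, up to 5298 bp in cap mesenchyme and 5397 bp in ureteric epithelium at the region on chromosome 10, and none carried it in ES cells. Their scores were 155.48 to 1850.40. Mappability was not analysed here, and no genome sequence was used for these regions.

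Scores near 3100 are mostly ties, with 4137 cap mesenchyme peaks at exactly that value, so they give no order among the top regions. Regions at starts with such scores were at Serpinf1, a secreted serpin (8.97 and 26.5 FPKM), and at genes that included Disp1, Bmi1, Elavl4, Srpk2, the neighbours Tmem176a and Tmem176b, Ank3 and Thra. Tmem176b, a membrane protein, was at 10.9 and 31.8 FPKM and Tmem176a at 3.54 and 9.34, under a shared region of 3801 bp. Elavl4, a neuronal RNA-binding protein, was at 4.08 and 0.444 FPKM. Regions crowded most in the 100 kb at chr16:21800001-21900000, at Map3k13, a kinase gene, with 5 regions, followed by 4 each at Hoxd3, D030068K23Rik and Skap1. On chromosome X lay 34 regions (1.72%), against 2.52% of cap mesenchyme peaks.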

How the data were processed

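Per the submitters' processing notes, the authors aligned chromatin reads with Bowtie2 and called peaks with MACS on mm10, and processed RNA with TopHat, Cufflinks and Cuffdiff; versions, settings, controls and pooling are not given in the sources used here. The deposited peaks each have a score, the authors' own value, which was used only within a list. RNA levels were the deposited FPKM of the authors' Cuffdiff table, with the authors' intervals. The 3 input libraries were not analysed here, and the depth of the libraries is unknown.

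Overlaps were computed with numpy 2.4.6 and pandas 2.3.3 and tested on simulated intervals. Of 138486 transcripts, 104146 were paired with a RefSeq gene by accession and 18273 by locus, 16067 stayed unpaired, and FPKM were summed per gene. Gene starts came from the RefSeq promoter table (32618) or from a gene's end (6587), where strand came from the order of the RNA table. Promoter sequence was not used for chromosome 18. Named regions and genes were the 10 widest and the 10 of highest score (ties at the cap in chromosome order), list genes at starts, the 12 genes highest in their lower tissue, the 8 largest and 8 smallest RNA differences, the 6 widest with ES or kidney H3K27me3, between genes and inside genes, the members nearest the limits, and the densest 100 kb stretches; others were picked after values were seen, and some items are not reported here. The regions and gene lists were chosen with earlier results of these data known. Alternatives changed the overlap, the score limits, distances, FPKM limits, pseudocount, scaling and CpG limit.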

Additional observations from a re-analysis of the deposited data

How the results depend on the processing

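Of 51 alternatives, 26 left a value within its counting interval (for counts, within 1.5 times), 24 moved it further and 1 turned the sign of a median. Asking for 50% of the shorter peak (1939 regions) or for no ES peak within 1 kb (1808) left every recomputed share within its interval. With only the upper 50% of both kidney lists by score, 126 regions were left, of which 35.7% were at a start, 12.7% had ureteric H3K27me3 and 75% of promoters were low in CpG. With only the upper 50% of ES peaks counted as present, the set held 4056 regions, with 23.7% at a start, 61.8% of promoters low in CpG, and H3K27me3 of cap mesenchyme over 8.01%, of ureteric epithelium over 11.4% and of ES cells over 9.22%. The share at a start was 11.4% with the start inside the region and 25.7% within 5 kb. With 50% of the region covered, the H3K27me3 shares were 1.67%, 3.39% and 1.67%, and with the upper 50% of the H3K27me3 peaks 4.0% in cap mesenchyme and 5.67% in ureteric epithelium. The share of genes expressed in mesenchyme was 32.9% at 0.5 FPKM and 18.2% at 2 FPKM. The low-CpG share was 77.4% at a limit of 0.5 and 92.8% at 0.75. Rescaling both RNA libraries to 1 median turned the median difference to 0.18 and gave 8 genes higher by 4-fold in mesenchyme, since it lowers ureteric values by 0.56 on the log2 scale. The share of all genes to set beside that count was not computed. A pseudocount of 0.1 gave 15 genes higher in mesenchyme (5.14%, against 1.33% of all genes) and 16 in ureteric epithelium (5.48%, against 2.59%). For the other changes the cause was not tested. No paired analysis was possible because each group held 1 sample. With 1 sample per group, and with depth and any pooling of libraries unknown, a peak missing from a list may lie under the caller's limit.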
